A study of Homo sapiens with 18 samples.

Results

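Retinoid metabolism and retinoic acid response genes were followed in U251 glioma cells exposed to the kinase inhibitor enzastaurin. The set holds 9 of the 19775 genes that had a probe set annotated to them alone: the enzymes DHRS3, ALDH1A1 and ALDH1A3, the carrier CRABP2, the nuclear receptors RARA, RARB, RARG and RXRA, and the retinoic acid target GPRC5A. These 9 genes have 23 such probe sets of 41091. The genes were picked by their role, with earlier results of these data known. Main probe sets were chosen by their measured level: for each gene the one with the highest mean log2 value over all 18 arrays, and the other probe sets served as a check.

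U251 is an established human glioblastoma line, grown here in RPMI medium with 5% serum. Enzastaurin was made as an inhibitor of the beta form of protein kinase C, its dose is not given in the labels, and DMSO is the solvent control. The series asks what enzastaurin does to transcript levels over time, under a title on GSK3 inhibition and glioma cell death. Cells received DMSO for 4, 10 or 18 h or enzastaurin for 4, 10 or 18 h, with 3 Affymetrix HG-U133 Plus 2.0 arrays in each of the 6 groups. The labels name no separate cultures, so the p values below measure the spread between these arrays, which may be technical.

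Array medians lay between 99.2 and 126, and the log2 values of arrays of the same group correlated at 0.970 to 0.984 over the probe sets at or above the median level. Of 14 astroglial and glioma markers, 10 lay at or above that level, among them VIM and NES, while the astrocyte marker GFAP read 5.0 to 101 and lay below it. The summed intensity of the 14 markers was 77740 to 86952 in DMSO at 4 h, 69890 to 70411 in DMSO at 18 h and 60714 to 73788 in enzastaurin at 18 h. The leukocyte marker PTPRC, the endothelial marker CDH5, the epithelial marker EPCAM and the hepatocyte marker ALB did not exceed 84.2 on any array. At or above the median level lay 2 of 5 leukocyte, 1 of 4 endothelial, 2 of 5 epithelial, 3 of 4 neuronal and 0 of 2 hepatocyte markers. Among these were the leukocyte ITGAM (109.9 to 223.2) and CD3E (22.6 to 229.3) and the endothelial PECAM1 (255.0 to 406.9). The epithelial KRT8 (2180.6 to 3191.1) and KRT18 (5810.5 to 8508.2) and the neuronal TUBB3 (17040.8 to 25715.4) read far higher. The hepatocyte APOA1 lay below the level on average but reached 246.5. Several markers themselves moved with enzastaurin. At 18 h NES was lower (log2 change -0.67) and SOX2 (0.45), EGFR (0.53) and TNC (0.33) were higher, and SOX2 had been lower at 4 h (-0.54). The epithelial keratins KRT8 (-0.33) and KRT18 (-0.22) were lower at 18 h, and the neuronal SYT1 was higher at 10 h (0.39) and 18 h (0.86), all by limma at an adjusted p under 0.05. The part of these markers in the changes below was not tested.

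Retinoic acid is made from vitamin A in a chain of oxidations. Retinol is oxidized to retinal by retinol dehydrogenases, DHRS3 reduces retinal back to retinol, and the ALDH1A enzymes convert retinal irreversibly to retinoic acid, which CYP26 enzymes break down. CRABP2 carries retinoic acid to the nucleus, where pairs of a retinoic acid receptor (RARA, RARB or RARG) and a retinoid X receptor (such as RXRA) bind repeated hexamers in DNA. RARB, DHRS3, CYP26A1 and GPRC5A are known as genes that retinoic acid induces, and DHRS3 and CYP26A1 lower the level of the hormone that induces them. In glioma, ALDH1A3 is known as a marker of mesenchymal stem-like cells.

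Promoter sequences are shown to set the known receptor site of RARB beside promoters of DHRS3 and ALDH1A3. DHRS3 is the tested member with the largest enzastaurin change at 18 h. ALDH1A3 is the member called higher at 10 h and lower at 18 h. RefSeq windows (GRCh38.p14, 250 bases before to 50 bases after a transcript start) were at hand for 8 of the 9 members, 16 windows in all. They were searched on both strands for a direct repeat of the receptor hexamer, with AGGTCA as the first form allowed, GGGTCA as the second, AGTTCA as the third and GGTTCA as the fourth, in any combination and with 1, 2 or 5 bases between the hexamers (DR1, DR2 and DR5). The only match in the 16 windows was a DR5 in a RARB window, from 53 to 37 bases before the start, and CYP26A1 held a DR5 on the opposite strand, from 90 to 74 bases before its start. Among all 35116 windows, 0.0883% held a DR5, 0.131% a DR1 and 0.0399% a DR2. A single hexamer of the same 4 forms lay in 8 of the 16 windows and in 38.6% of all windows, and by construction every direct repeat contains such hexamers. The 250 bases before the start are given for RARB (chr3:25428013-25428262, + strand), with the DR5 hexamers in capitals and a single hexamer farther upstream left in lower case. They are followed by DHRS3 (chr1:12618211-12618460, - strand) and ALDH1A3 (chr15:100879581-100879830, + strand), which hold no such hexamer in the windows shown. Each of the other 2 DHRS3 windows holds 1 single hexamer and no repeat.
RARB: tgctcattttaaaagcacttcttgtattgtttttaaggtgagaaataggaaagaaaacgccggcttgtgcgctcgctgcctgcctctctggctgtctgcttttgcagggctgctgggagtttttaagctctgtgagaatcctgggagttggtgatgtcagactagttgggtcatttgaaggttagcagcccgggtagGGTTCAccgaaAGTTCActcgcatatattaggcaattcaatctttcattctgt
DHRS3: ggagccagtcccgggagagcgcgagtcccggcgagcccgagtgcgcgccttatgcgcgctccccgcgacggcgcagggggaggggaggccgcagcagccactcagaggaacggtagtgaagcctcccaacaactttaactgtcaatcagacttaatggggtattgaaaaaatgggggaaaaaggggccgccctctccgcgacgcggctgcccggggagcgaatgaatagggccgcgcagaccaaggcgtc
ALDH1A3: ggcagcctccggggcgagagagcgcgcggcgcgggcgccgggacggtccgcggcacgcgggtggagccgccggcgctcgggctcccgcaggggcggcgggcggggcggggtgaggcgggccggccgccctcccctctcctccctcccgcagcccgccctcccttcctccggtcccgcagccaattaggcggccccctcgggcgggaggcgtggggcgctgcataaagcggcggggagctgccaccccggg
The repeat itself is shown beside that of CYP26A1 (chr10:93073803-93073819, - strand), each read along its own strand with the hexamers in capitals.
RARB DR5: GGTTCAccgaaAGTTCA
CYP26A1 DR5: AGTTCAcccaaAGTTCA
A match is a stretch of letters and not a measured site. The 3 long promoters also differ in base composition, since G and C made up 46.7% of the RARB window, 64.7% of this DHRS3 window and 81.7% of the ALDH1A3 window.

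Levels below are the scaled intensities that the authors deposited, and changes are differences of group means of log2(intensity + 16), which understate the change of dim probe sets. A change was called at a Benjamini-Hochberg adjusted p under 0.05 in limma, over the 12376 genes at or above the median level of all probe sets (an intensity of about 102). Of the 9 members 7 were tested. RARG lay just under that level (mean log2 6.76 against 6.88) and ALDH1A1 far under it (4.82), and DHRS3 was the dimmest member tested (7.45). All 7 would also have passed without their brightest group. The members were chosen with earlier results of these data known, so the counts describe them and are no independent evidence.

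At 4 h none of the 7 tested members was called in limma, where 1.81% of all genes were (0.558% higher and 1.25% lower), and 1 member (RARA) had an unadjusted p under 0.05. At 10 h 4 members were lower (DHRS3, RARB, RXRA and GPRC5A) and 1 was higher (ALDH1A3), where 8.45% of all genes were called, 4.69% lower and 3.77% higher. At 18 h 5 members were lower and none higher: DHRS3, ALDH1A3, RARB, RXRA and GPRC5A. Of all genes 16% were called at 18 h, 7.9% lower and 8.1% higher. The median change of the 7 members was 0.07, -0.60 and -0.64 at 4, 10 and 18 h, against 0.00, -0.02 and 0.00 over all genes tested. Arrays of enzastaurin and DMSO did not overlap for 18.3%, 26.8% and 29.7% of all genes tested at 4, 10 and 18 h. Arms that lie apart, as given for members below, were thus common and are weak evidence on their own.

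**Figure D1:**
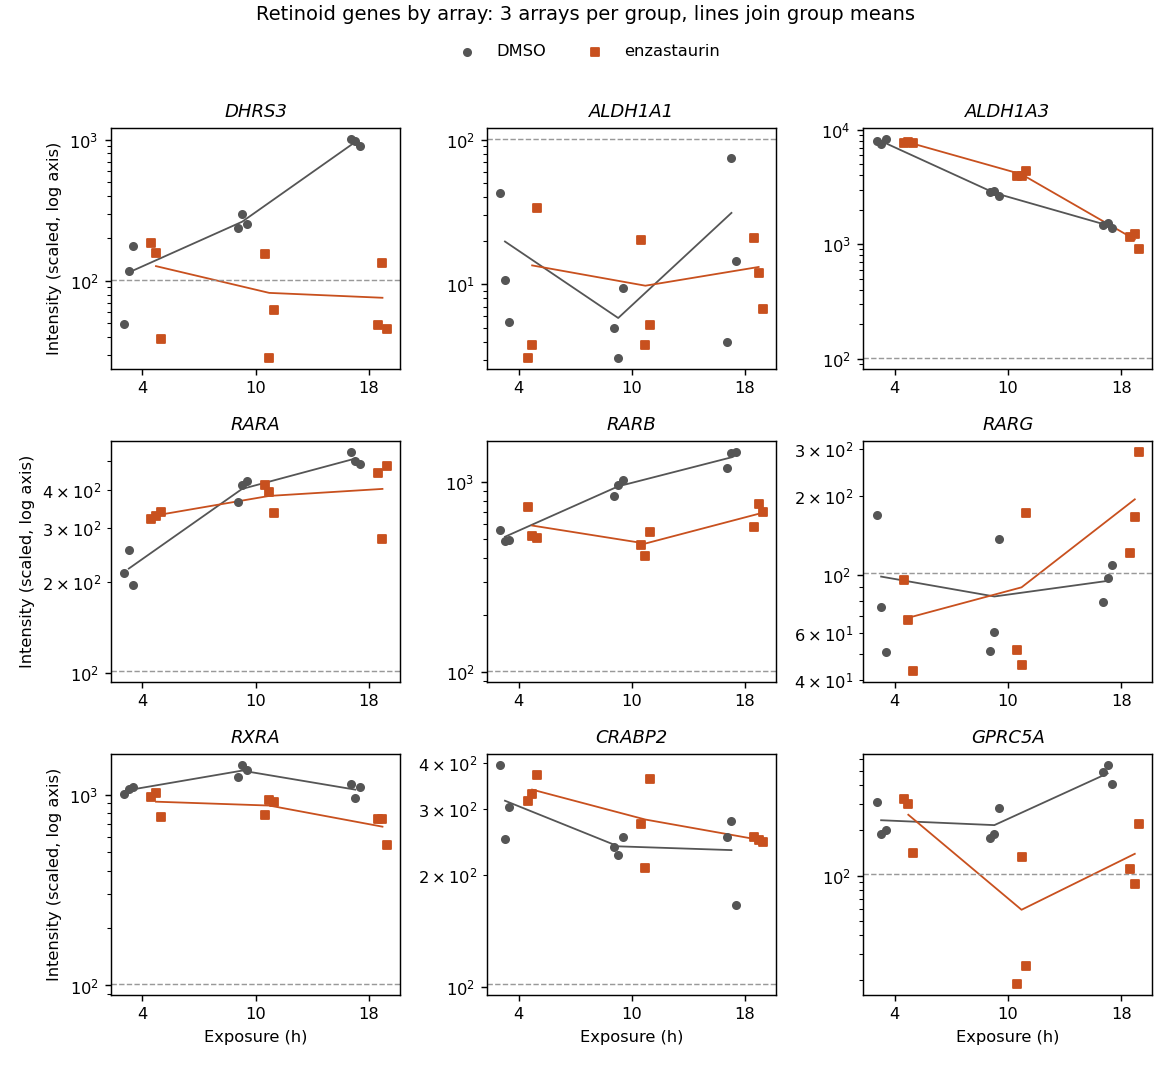
Scaled intensity of the main probe set of each gene on every array (log axis) against hours of exposure (the 3 times are drawn evenly spaced), with DMSO as grey circles and enzastaurin as orange squares; lines join group means, and the dashed line marks the level filter, an intensity of about 102. In DMSO, DHRS3 climbed to 898 to 1018 at 18 h while the enzastaurin arrays stayed at 45.3 to 133.4, and ALDH1A3 went down with time in both arms.

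DHRS3, the retinal reductase, rose with time in DMSO and not in enzastaurin. In DMSO its intensity was 49.3, 117 and 178 at 4 h, 237, 298 and 253 at 10 h, and 1018, 976 and 898 at 18 h. In enzastaurin it was 184, 159 and 38.7 at 4 h, 156, 28.6 and 62.2 at 10 h, and 49.1, 133.4 and 45.3 at 18 h. The arms overlapped at 4 h and were apart at 10 and 18 h, and the DMSO groups of 4, 10 and 18 h did not overlap each other. At 4 h the change was 0.06 (SE 0.50, limma adjusted p = 0.981). The change was -1.72 (SE 0.50, limma adjusted p = 0.0354) at 10 h and -3.54 (SE 0.50, limma adjusted p = 3.09e-05) at 18 h, an 11.6-fold lower level on this scale. The 18 h value lay between -3.95 and -3.31 whichever array was left out. The 10 h call was lost without any 1 of 5 of the 18 arrays: each of the 3 DMSO arrays of 10 h, or enzastaurin replicate 2 or 3 of 10 h (adjusted p up to 0.18). It was also lost with no level filter (adjusted p = 0.0676), in the fit without the trend (adjusted p = 0.077) and with probe sets averaged per gene (adjusted p = 0.054). DHRS3 has a single probe set here, so no other probe set bears on it.

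ALDH1A3, the enzyme of the last step to retinoic acid, changed in opposite directions at 10 and 18 h. Its intensity was 8005, 7509 and 8370 (mean 7961) in DMSO at 4 h and 7713, 7893 and 7706 in enzastaurin, and these groups overlapped (log2 change -0.03, SE 0.09). At 10 h it was 2863, 2913 and 2646 in DMSO and 3974, 3955 and 4329.9 in enzastaurin, with all enzastaurin arrays above all DMSO arrays. The 10 h change was 0.54 (SE 0.09, limma adjusted p = 0.000338), 1.45-fold higher. At 18 h the order was turned, with 1474, 1527 and 1389.6 in DMSO and 1156, 1238 and 909 in enzastaurin, a change of -0.42 (SE 0.09, limma adjusted p = 0.00176). The level went down from 4 to 10 to 18 h in both arms, and no array of a later time reached the lowest array of an earlier time in the same arm. A second, dim ALDH1A3 probe set (at most 106 on any array) was not tested. Its change was 0.52 (SE 0.43) at 10 h and -0.48 (SE 0.43) at 18 h, and averaging the probe sets on the log2 scale ended both calls (adjusted p = 0.112 and 0.129). ALDH1A1, the other enzyme of this step in the set, read 3.1 to 75.2 over the 18 arrays, and its groups overlapped at every time. Whether such low readings exceed background was not tested, since no detection calls were used here.

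CRABP2, the carrier, was not called at any time. Its intensity was 394, 249.9 and 304 in DMSO and 316, 329 and 369.6 in enzastaurin at 4 h, and 237, 225 and 253 in DMSO and 274, 209 and 361 in enzastaurin at 10 h. At 18 h it was 253, 279.6 and 166 in DMSO and 253, 247 and 245 in enzastaurin. The arms overlapped at all 3 times. The changes were 0.11, 0.19 and 0.12 (SE 0.21 each; limma adjusted p = 0.885, 0.679 and 0.785).

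RARB, the receptor gene with the DR5 shown above, took the course of DHRS3 in DMSO at a smaller size. In DMSO its intensity was 561, 493 and 495 at 4 h, 849.8, 969 and 1032 at 10 h, and 1189.9, 1416 and 1444 at 18 h. In enzastaurin it was 741, 523 and 509.6 at 4 h, 470.0, 408 and 549 at 10 h, and 582, 765 and 698 at 18 h. The arms overlapped at 4 h, and at 10 and 18 h every enzastaurin array lay below every DMSO array. The change was 0.17 (SE 0.14) at 4 h, -0.98 (SE 0.14, limma adjusted p = 0.000147) at 10 h and -0.97 (SE 0.14, limma adjusted p = 5.85e-05) at 18 h, when the level was 1.96-fold lower. Of the 4 other RARB probe sets, 2 reached the level filter. The brighter of them read 521, 528 and 659 in DMSO and 245, 394 and 404 in enzastaurin at 18 h, a change of -0.71 (SE 0.19, limma adjusted p = 0.0134 over all probe sets), and -0.48 (SE 0.19, adjusted p = 0.145) at 10 h. The other showed -0.29 (SE 0.28, adjusted p = 0.572) at 18 h. Averaging all 5 probe sets ended both calls (-0.28, adjusted p = 0.472, and -0.55, adjusted p = 0.0626).

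RXRA, the partner receptor, was lower in enzastaurin at 10 and 18 h. Its intensity was 1000.2, 1074 and 1091.5 in DMSO and 967, 1020.3 and 764 in enzastaurin at 4 h, with overlapping arms and a change of -0.21 (SE 0.12, limma adjusted p = 0.523). At 10 h it was 1228, 1429.8 and 1343 in DMSO and 778, 938 and 911 in enzastaurin, a change of -0.60 (SE 0.12, limma adjusted p = 0.00365). At 18 h it was 1134, 959.6 and 1088 in DMSO and 746, 743 and 547 in enzastaurin, a change of -0.64 (SE 0.12, limma adjusted p = 0.000924), 1.56-fold lower. The arms were apart at both times. A dimmer second RXRA probe set (117 to 238 over all arrays) did not share this. It showed -0.21 (SE 0.27) at 10 h and 0.04 (SE 0.27) at 18 h, and averaging the probe sets ended both RXRA calls (adjusted p = 0.1 and 0.172).

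RARA was not called at any of the 3 times on its main probe set, and its probe sets disagreed. The main one read 214, 254 and 195 in DMSO and 322, 330.0 and 340.4 in enzastaurin at 4 h, where the enzastaurin arrays lay above the DMSO arrays (log2 change 0.56, SE 0.17, limma adjusted p = 0.116). Without enzastaurin replicate 2 of 18 h that change was called (adjusted p = 0.0359). At 10 h it read 366, 417 and 431 in DMSO and 418, 395 and 338 in enzastaurin. At 18 h it read 536, 501 and 490.1 in DMSO and 456, 278 and 479.9 in enzastaurin, with the enzastaurin arrays below (-0.36, SE 0.17, limma adjusted p = 0.173). A second RARA probe set has a higher mean on the linear scale (402 against 376) but a lower one on the log2 scale. It read 537, 580.0 and 433 in DMSO and 14.0, 465 and 129.5 in enzastaurin at 18 h, and the arms overlapped. With it as the main probe set RARA was called at 18 h (-2.05, adjusted p = 0.0296) and its 4 h value was -1.43 (adjusted p = 0.338). At 4 h its enzastaurin arrays (274.5, 394.4 and 93.6) all lay below its DMSO arrays (714.7, 777.8 and 421.1), opposite to the main probe set. The other 3 RARA probe sets were under the level filter and not tested. Among them, the probe set with the largest 18 h change read 21.2, 48.6 and 57.7 in DMSO and 158.4, 129.1 and 133.5 in enzastaurin. Its change was 1.47 (SE 0.58), opposite to the main probe set, and the remaining ones showed 0.18 (SE 0.53) and 0.39 (SE 0.73). RARG, the third retinoic acid receptor, read 78.9, 97.1 and 109 in DMSO and 121, 167 and 294 in enzastaurin at 18 h on its main probe set, and was not tested. At 4 and 10 h its arms overlapped, at 43.3 to 169 and 45.5 to 172. The other RARG probe sets, dimmer and also not tested, showed 0.30 (SE 0.33) and -0.10 (SE 0.44) at 18 h, with overlapping arms. The first of these lay lower in enzastaurin at 4 h (36.9 to 45.7 against 48.6 to 71.7 in DMSO).

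GPRC5A, an orphan receptor gene known for its induction by retinoic acid, was lower in enzastaurin at 10 and 18 h. Its intensity was 311, 190.1 and 199.7 in DMSO and 324, 298 and 140.5 in enzastaurin at 4 h, with overlapping arms and a change of 0.07 (SE 0.43, limma adjusted p = 0.974). At 10 h it was 178, 189 and 282 in DMSO and 19.0, 133.4 and 25.1 in enzastaurin, a change of -1.93 (SE 0.43, limma adjusted p = 0.00672). At 18 h it was 486, 546 and 406 in DMSO and 110.4, 87.6 and 221 in enzastaurin, a change of -1.75 (SE 0.43, limma adjusted p = 0.00707), 3.37-fold lower. The arms were apart at 10 and 18 h. Both calls were kept whichever of the 18 arrays was left out (adjusted p up to 0.0467 at 10 h and 0.039 at 18 h), and without enzastaurin replicate 2 of 10 h the 10 h change was -2.59. A second GPRC5A probe set, under the level filter and so not tested, read 182, 266 and 334 in DMSO and 31.5, 13.5 and 21.4 in enzastaurin at 18 h. In DMSO at 4 h it had read 20.7, 26.9 and 33.3. Its change at 18 h was -2.85 (SE 0.32), while the third and dimmest probe set showed -0.34 (SE 0.41).

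**Figure D2:**
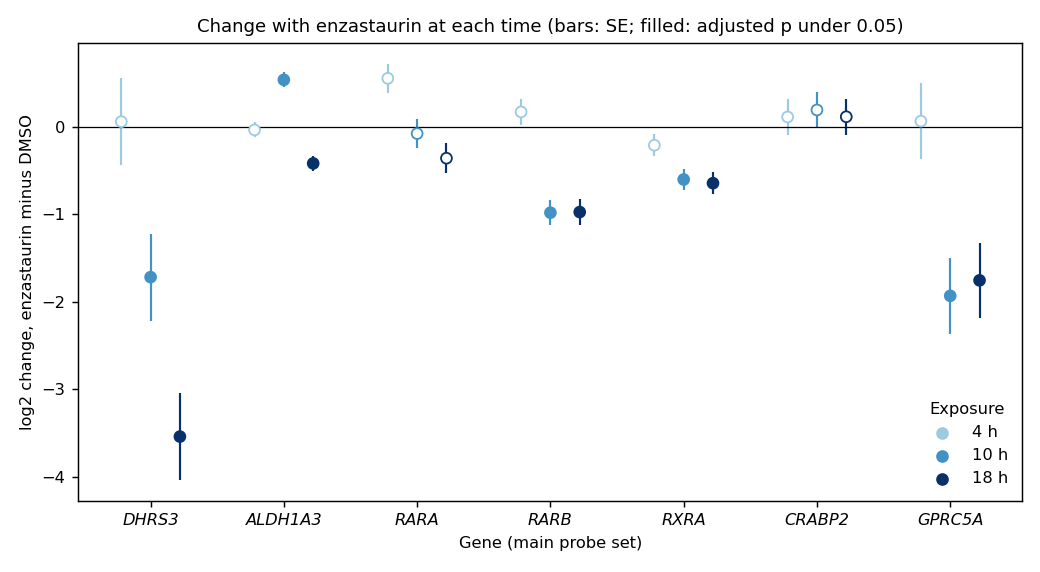
Change with enzastaurin of the 7 tested members on the log2 scale, as enzastaurin minus DMSO at 4, 10 and 18 h; bars are standard errors and filled points have an adjusted p under 0.05. No point is filled at 4 h, and ALDH1A3 is the member whose filled points lie on both sides of 0 (0.54 at 10 h and -0.42 at 18 h).

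The DMSO cells changed over time on their own. From 4 to 18 h in DMSO 3 of the 7 members were higher and 1 was lower, where 20.3% of all genes were called, 11.3% higher and 9% lower. DHRS3 rose by 3.04 (SE 0.50, limma adjusted p = 0.000175), RARB by 1.36 (SE 0.14, limma adjusted p = 1.13e-06) and RARA by 1.15 (SE 0.17, limma adjusted p = 5.94e-05). The second RARA probe set, at -0.26 (SE 0.64, adjusted p = 0.84), did not share that rise. ALDH1A3 changed by -2.43 (SE 0.09, limma adjusted p = 2.18e-13), a 5.39-fold lower level. Its dim second probe set, not tested, did not share this (0.13, SE 0.43). GPRC5A showed 1.01 (SE 0.43, adjusted p = 0.112), which passed without enzastaurin replicate 2 of 10 h (adjusted p = 0.0319) and in the fit to the compared groups alone (adjusted p = 0.00506). The second GPRC5A probe set, not tested, showed 2.66 (SE 0.32). CRABP2 showed -0.42 (SE 0.21, adjusted p = 0.174) and RXRA 0.00 (SE 0.12). These values and the enzastaurin changes at 4 and 18 h share their DMSO arrays. In the enzastaurin arm, the mean intensity at 4, 10 and 18 h was 127, 82.2 and 75.9 for DHRS3, 591, 476 and 682 for RARB, and 7771, 4086 and 1101 for ALDH1A3.

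The enzastaurin effect differed between times for 4 members. Between 18 and 4 h it was lower at 18 h by 3.60 for DHRS3 (log2 difference -3.60, SE 0.70, limma adjusted p = 0.0024). RARB differed by -1.15 (SE 0.20, limma adjusted p = 0.00114) and RARA by -0.91 (SE 0.24, limma adjusted p = 0.0217). These are 3 of 7 members, where 7.78% of all genes were called, 3.71% in that direction and 4.07% in the other. The RARA difference was lost without DMSO replicate 3 of 4 h (adjusted p = 0.0585) or DMSO replicate 1 of 18 h (adjusted p = 0.0512). With the RARA probe set of the highest linear mean the difference was -0.62 and not called (limma adjusted p = 0.771). The other RARB probe sets tested were not called either, at -0.55 (SE 0.26, adjusted p = 0.274) and -0.08 (SE 0.40, adjusted p = 0.949). GPRC5A (-1.82, SE 0.61, adjusted p = 0.0756), RXRA (-0.43, SE 0.18, adjusted p = 0.151) and ALDH1A3 (-0.38, SE 0.12, adjusted p = 0.0612) did not pass. Those of GPRC5A and ALDH1A3 passed under some alternatives: for GPRC5A without enzastaurin replicate 2 of 10 h (adjusted p = 0.0175), replicate 3 of 4 h (0.0375) or replicate 3 of 18 h (0.0398), and for ALDH1A3 without enzastaurin replicate 2 of 18 h (0.0172). Between 18 and 10 h ALDH1A3 alone of the 7 passed (-0.96, SE 0.12, limma adjusted p = 0.00021), where 2.23% of all genes were called, 0.905% in that direction and 1.33% in the other. For RARB that difference was 0.01 (SE 0.20) and for GPRC5A 0.18 (SE 0.61).

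**Figure D3:**
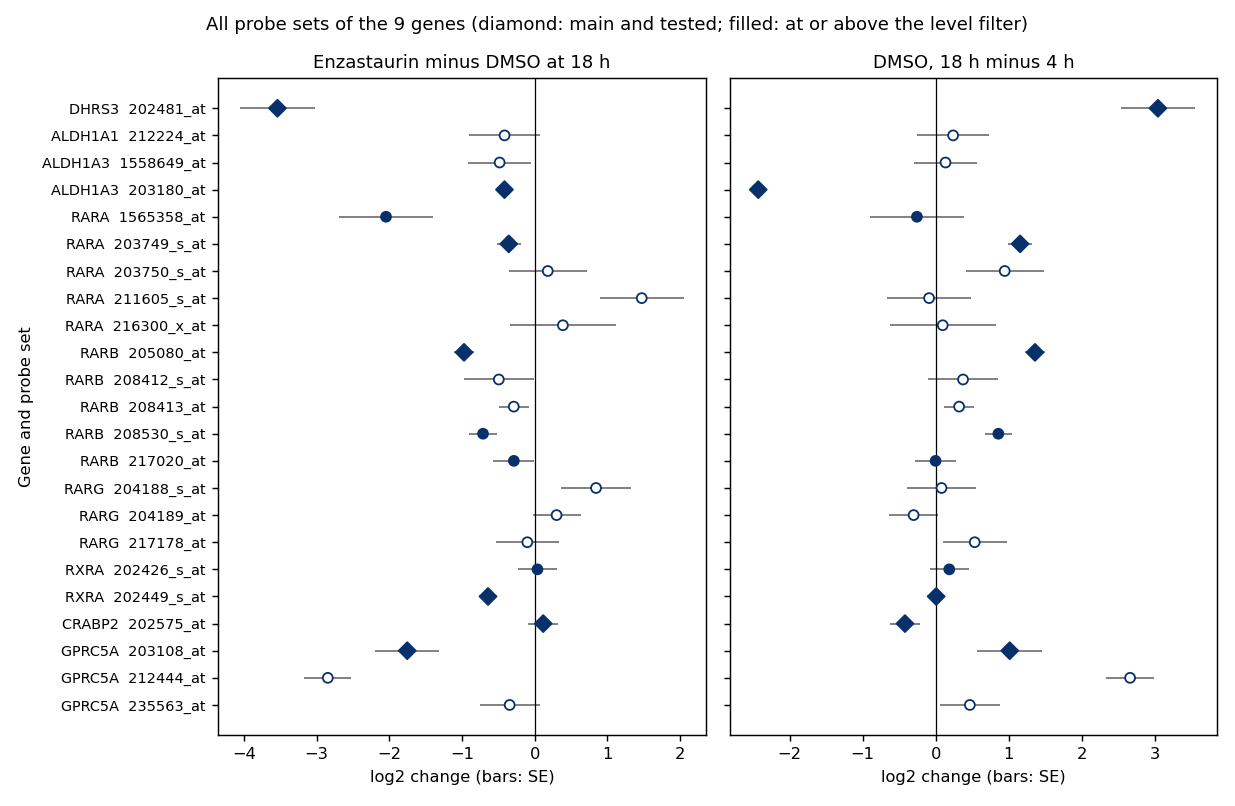
Log2 change of all 23 probe sets of the 9 genes with standard errors, for enzastaurin minus DMSO at 18 h (left) and for DMSO at 18 h minus 4 h (right); diamonds are main probe sets that were tested and filled symbols reached the level filter. The main and the second brightest RARB probe sets lie below 0 on the left and above 0 on the right, while the probe sets of RARA spread from -2.05 to 1.47 on the left. The third brightest RARB probe set lies at -0.29 on the left and -0.004 on the right.

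Other genes of the pathway were taken from 8 lists written from general knowledge, with these results known. Retinol and retinal converting enzymes had 10 of 21 members tested, and at 18 h 1 was higher and 1 lower (median -0.01 against 0.00 over all genes), where 16% of all genes were called. RDH11, a microsomal retinal reductase, went from 3923 ± 182 to 6151 ± 1299 (SD, n = 3 each; log2 change 0.63, SE 0.11, limma adjusted p = 0.000445). AKR1C3, an aldo-keto reductase that also reduces retinal, went from 211 ± 38.6 to 99.0 ± 4.85 (SD, n = 3 each; -0.97, SE 0.27, limma adjusted p = 0.0165), a call lost without DMSO replicate 3 of 18 h (adjusted p = 0.0825). AKR1C3 was also lower at 10 h (-0.87, adjusted p = 0.049), but that call was lost in 17 of 18 fits that left out an array, with adjusted p up to 0.17. Its close paralogs may share signal with this probe set. RDH10, the main retinol dehydrogenase of retinoic acid synthesis in embryos, was not called (-0.16, -0.23 and 0.26 at 4, 10 and 18 h).

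Retinoic acid synthesis and breakdown genes had 3 of 9 members tested, with no call at 4, 10 or 18 h in limma. The synthesis enzyme gene ALDH1A2 (18.0 to 137) and the breakdown genes CYP26A1 (9.4 to 35.8) and CYP26B1 (12.5 to 174) read below the level filter on average and were not tested. Uptake and binding genes had 1 of 11 tested, STRA6, the retinol receptor (-0.21, SE 0.16, adjusted p = 0.448 at 18 h), and storage and release genes 2 of 10, with no call. Among the other aldehyde dehydrogenases, 12 of 14 were tested, and 1 was higher and 3 lower at 18 h (median -0.23), where 8.1% of all genes were higher and 7.9% lower. ALDH4A1 (-0.75, adjusted p = 0.0113), which acts in proline breakdown, ALDH5A1 (-0.66, adjusted p = 0.0211), which acts in GABA breakdown, and ALDH1B1 (-0.41, adjusted p = 0.033) were lower. ALDH2, the mitochondrial acetaldehyde dehydrogenase, was higher (0.44, adjusted p = 0.03). Each of these 4 calls was lost without at least 1 array, with adjusted p up to 0.0764, 0.124, 0.167 and 0.179 in that order.

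Receptor partners and coregulators had 14 of 20 members tested, with 1 higher at 4 h, 1 lower at 10 h, and 2 higher and 1 lower at 18 h (median 0.03). Over all genes 1.81%, 8.45% and 16% were called at these times. NR2F1, an orphan receptor that binds similar repeats, was higher at 18 h (0.61, SE 0.13, limma adjusted p = 0.00184), and TBL1XR1, a subunit of the corepressor complex, was lower (-0.52, SE 0.08, limma adjusted p = 8.8e-05). PPARD (0.22, adjusted p = 0.038) was the other higher gene at 18 h, CREBBP, a coactivator, was lower at 10 h (-0.30, adjusted p = 0.0348) and NRIP1, a corepressor, was higher at 4 h (0.67, adjusted p = 0.018). The calls of PPARD, CREBBP and NRIP1 were lost without single arrays, with adjusted p up to 0.162, 0.143 and 0.119.

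Other genes known to respond to retinoic acid had 18 of 38 members tested. Counts of higher and lower genes were 2 and 1 at 4 h, 1 and 2 at 10 h, and 1 and 1 at 18 h, with medians of -0.07, -0.05 and 0.04, against the same 1.81%, 8.45% and 16% of all genes called. NRIP1 stands in this list and in that of the coregulators, and is counted in both at 4 h. BHLHE40, a transcriptional repressor also induced by many stresses, was higher at all 3 times (0.81, 0.90 and 1.34, limma adjusted p = 0.000438, 3.16e-05 and 5.49e-08). At 18 h the DMSO arrays averaged 2077 ± 358 and the enzastaurin arrays 5252 ± 86.2 (SD, n = 3 each). IGFBP6, which binds insulin-like growth factors, was lower at 10 and 18 h (-0.63 and -0.66, adjusted p = 0.0376 and 0.0172), but both calls were lost without single arrays (adjusted p up to 0.208 and 0.101). DUSP6, an ERK phosphatase, was lower at 4 and 10 h (-0.72 and -0.71, limma adjusted p = 0.00234 and 0.000974) and was not called at 18 h (0.05). Its 4 h call was lost with array medians subtracted (-0.61, adjusted p = 0.103). Among the paralogs of GPRC5A, 2 of 3 were tested. GPRC5B was higher at 18 h, when GPRC5A was lower, with 564 ± 23.5 against 126 ± 96.1 in DMSO (SD, n = 3 each; 2.31, SE 0.39, limma adjusted p = 0.000222), and GPRC5D was not called (-0.08, SE 0.19). Without DMSO replicate 1 of 18 h the GPRC5B change was 1.67, and the call was kept whichever array was left out (adjusted p up to 0.0015).

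**Figure D4:**
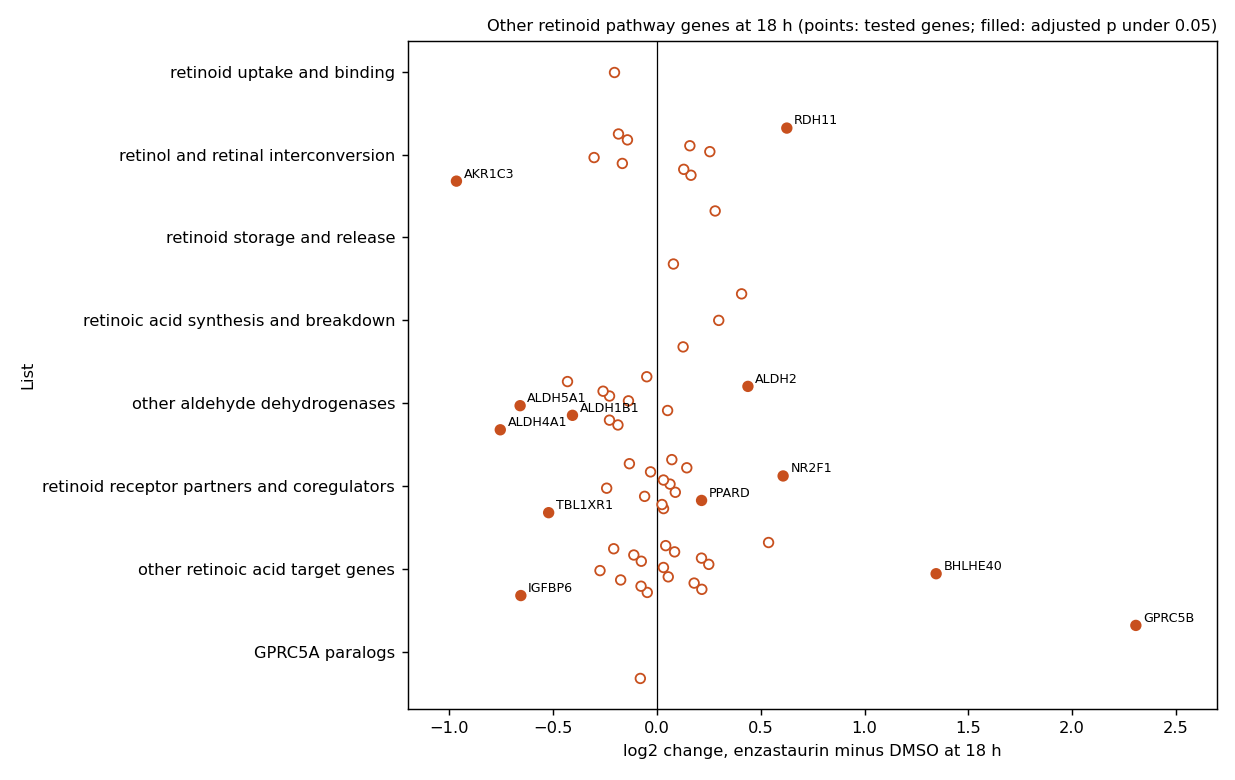
Log2 change at 18 h (enzastaurin minus DMSO) of each tested gene in the 8 pathway lists, with genes of an adjusted p under 0.05 filled and named. Most points are open and lie on either side of 0, and the filled points farthest from 0 are GPRC5B at 2.31 and BHLHE40 at 1.34.

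The genes whose log2 values followed a member most closely were listed for 4 members, over the 18 arrays and the genes tested. Symbols of uncharacterized loci, of antisense and long noncoding RNAs, and of the FAM and KIAA series were left out. These correlations describe arrays that share their groups. For DHRS3 they were CREBL2 (r = 0.9), MAF1 (r = 0.887) and IGF2BP3 (r = 0.882). For GPRC5A they were JADE2 (r = 0.873), DTX3L (r = 0.841) and TNFAIP2 (r = 0.84). For ALDH1A3 the closest were PDE1C (r = 0.98), S100A2 (r = 0.979) and CNTN1 (r = 0.978), which likewise went down with time in both arms, CNTN1 from a mean of 4533 at 4 h to 1293 at 18 h in DMSO. For CRABP2 they were PLOD3 (r = 0.811), TTF1 (r = 0.804) and ARL6IP4 (r = 0.798).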

How the data were processed

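Total RNA of U251 cells was measured on 18 arrays. The authors deposited 1 scaled intensity per probe set and array for 54613 probe sets, made with GCOS 1.2 per the submitters' processing notes. Each array had been scaled to a 2% trimmed mean of 498.2 to 498.5, as the values show, over a range of 0.1 to 63585. The platform table named 1 gene for 41091 probe sets, several for 1801 and none for 11721; names were updated by gene identifier to RefSeq (GRCh38.p14). Per gene the probe set with the highest mean of log2(intensity + 16) was used, and genes under the median level were left out of tests. A model with 1 mean per group was fitted to all arrays with limma 3.58.1 (R 4.3.3, trend on level), and p values were adjusted by Benjamini-Hochberg over 12376 genes. The fit was tested on simulated data for 1 comparison only, with changes planted in the enzastaurin arrays of 18 h. Named genes are all members, up to 4 genes per pathway list with the smallest adjusted p at 18 h among those called at any time, and the 3 closest genes of 4 members. For the closest genes, symbols of uncharacterized loci, of antisense and long noncoding RNAs, and of the FAM and KIAA series were left out. Members, lists and this rule were chosen with earlier results of these data known. RDH10, ALDH1A2, CYP26A1, CYP26B1, STRA6 and GPRC5D were named besides, after their values were seen, as were the cell type markers. Alternatives were other offsets, filters, normalizations, probe set choices, a fit without the trend, array weights, fits to the compared groups alone, replicate blocks and each array left out. Deviations from the group means, set against those of arrays with the same replicate number, gave r of -0.095 to 0.18 (45 pairs, 2 above 0.1), so numbers were not treated as pairs. Figures used Python 3.11.15 and matplotlib 3.10.9.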

Additional observations from a re-analysis of the deposited data

Results flagged for a closer look

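The enzastaurin effect differed between times by the test of the difference itself for 4 members, each on the log2 scale with limma. The difference between 18 and 4 h was -3.60 for DHRS3 (adjusted p = 0.0024), -1.15 for RARB (adjusted p = 0.00114) and -0.913 for RARA (adjusted p = 0.0217). Between 18 and 10 h it was -0.956 for ALDH1A3 (adjusted p = 0.00021). Of all genes 7.78% were called for the difference of 18 and 4 h and 2.23% for that of 18 and 10 h. Averaging the probe sets of a gene ended the differences of RARB (-0.57, adjusted p = 0.25), RARA (-0.13, adjusted p = 0.898) and ALDH1A3 (-0.98, adjusted p = 0.0854), while DHRS3 has a single probe set. The RARA difference was also lost with the probe set of the highest linear mean (-0.62, adjusted p = 0.771). No group had the 4 or more arrays that the search for outlying arrays needs.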

How the results depend on the processing

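The 7 tested members gave 18 calls over the 6 comparisons, and 209 of their 224 values under settings other than leaving out arrays kept direction and call. Of the remainder 14 lost the call, 11 of them with probe sets averaged per gene, and 1 turned. That was RARA in DMSO from 4 to 18 h, at -0.26 (adjusted p = 0.834) with the probe set of the highest linear mean, a setting added after the data were seen. With probe sets averaged, the count of members changed was 0 at 10 h, 1 at 18 h, 1 for the difference of 18 and 4 h and 0 for that of 18 and 10 h, and GPRC5A fell under the level filter. In that setting 658, 1410, 577 and 131 of all 10682 genes tested were called, in the same order. With the brightest 25% of probe sets the count of members was 3 at 10 h, 3 at 18 h and 2 in DMSO over time. With that filter 1094, 1915 and 2354 of all 7627 genes tested were called. That filter left DHRS3, GPRC5A, RARA and CRABP2 out of the test, and no member still tested lost a call. Leaving out each array gave 0 to 1 members at 4 h (RARA, without enzastaurin replicate 2 of 18 h), 4 to 5 at 10 h, 5 at 18 h, 2 to 4 for the 18 and 4 h difference, 1 for the 18 and 10 h difference and 4 to 5 in DMSO. Of all 12376 genes those fits called 138 to 236, 653 to 1115, 1525 to 2078, 704 to 1016, 181 to 286 and 1991 to 2591, in that order. The 18 and 4 h difference of GPRC5A passed with an offset of 64 (adjusted p = 0.0337) and in the fit to the compared groups alone (adjusted p = 0.0259), and that of ALDH1A3 with quantile normalization (adjusted p = 0.0478) and with the brightest 25% of probe sets (adjusted p = 0.0391). The DMSO change of GPRC5A passed with an offset of 64 (adjusted p = 0.0464). The replicate block left 5 members at 10 h, 5 at 18 h and 4 in DMSO over time, and changed no call of a member. It called 1045, 1946 and 2469 of all 12376 genes in these comparisons. Counts over all genes were lowest with array medians subtracted: 79 against 224 at 4 h, 443 against 1046 at 10 h, 1187 against 1981 at 18 h, 546 against 963 and 65 against 276 for the differences, and 1536 against 2518 in DMSO. That setting moved the median change of all genes at 4 h to 0.12, with 54 genes higher and 25 lower against 69 and 155. For the 18 and 4 h difference it gave 143 higher and 403 lower against 504 and 459. Low intensity limits DHRS3 and GPRC5A in enzastaurin, and RARG and ALDH1A1 throughout.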
